A study of Mus musculus with 2 samples.

Results

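The genes described here make up the glutathione, thioredoxin and related antioxidant systems of the newborn mouse adrenal gland. They were chosen by symbol alone: glutathione transferases (Gst, Mgst), glutathione peroxidases (Gpx), peroxiredoxins (Prdx), thioredoxins and their reductases (Txn, Txnrd), superoxide dismutases (Sod), and Cat, Gsr, Gss, Gclc, Gclm, Nnt, Srxn1 and Nqo1. The rule found 56 gene records with 55 symbols among 55536 annotated genes; Nnt has 2 records. The study sequenced total RNA of adrenal gland tissue, taken at an age of 4 days from 2 mice that were female and of the cross B6CASTF1/J. The animals form 1 group without any treatment, and B6CASTF1/J mice are, as background, hybrids of the laboratory strain C57BL/6J and the wild-derived strain CAST/EiJ. With 1 group there is no comparison between conditions: the values give each gene's level and how far the 2 animals differed.

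Reactive oxygen species are removed in steps. Superoxide dismutases turn superoxide into hydrogen peroxide, which catalase, the peroxiredoxins and the glutathione peroxidases reduce to water. Peroxiredoxins are recharged by thioredoxin and its reductase, glutathione peroxidases by glutathione and glutathione reductase, and both routes draw on NADPH. Glutathione transferases attach glutathione to reactive compounds. In steroid-producing cells the mitochondrial cytochrome P450 enzymes leak electrons to oxygen, and the gland is known to need this system: inherited loss of NNT or TXNRD2 causes familial glucocorticoid deficiency in people.

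Sequencing depth was 31838341 expected counts in replicate 1 and 32931868 in replicate 2. Levels are in TPM, a share of the library corrected for transcript length; the text gives both animals' values, then their mean ± SD (n = 2). The animals are compared by a log2 ratio with replicate 2 in the numerator, taken from expected counts after TMM scaling (a factor that sets most genes equal), and each ratio has a 95% exact counting interval; negative values mean lower in replicate 2. The animal number given for replicate 2 differs between its tissue label and its library label, and the latter is that of replicate 1; both samples also share a donor record. They are called animals here, and if they were not separate animals, the SD would not measure spread between animals. Markers of adrenal cortex (7 of 7) and medulla (6 of 6) were detected in both libraries, as the labelled tissue would have them. Markers of neighbouring tissue were uneven: the summed level was 108 TPM in replicate 1 and 11.1 in replicate 2 for the 10 kidney markers, 3293 and 0.51 for the 5 pancreas markers (Ins2 and Cela2a at 0 in replicate 2), 104 and 455 for the 5 liver markers, and 361 and 2253 for the 5 skeletal muscle markers. Erythroid markers summed to 5272 and 3822 TPM. In RNA of a tissue, fewer cells of a type and less RNA per cell cannot be told apart.

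Of the 56 members, 47 (83.9%) were detected, meaning 1 TPM or more in both animals. The share was 26.4% among all annotated genes (14669 of 55536) and 59.3% among protein-coding genes (13067 of 22028). At the top, 9 members had a mean of 100 TPM or more: Sod1, Mgst1, Prdx2, Gpx4, Prdx1, Gpx1, Prdx3, Prdx6 and Sod2. A mean of 10 TPM or more was reached by 38 members. Summed over all members, the animals had 2940 and 2972 TPM (2956 ± 22.1). From this sum the peroxiredoxins with sulfiredoxin gave 797 ± 8.33 TPM, all glutathione transferases 740 ± 20.3, the superoxide dismutases with catalase 558 ± 19.3, the glutathione peroxidases 466 ± 18.9 and the thioredoxins with their reductases 256 ± 1.80. These sums count all RNA of each gene. For Prdx6 and Sod2 most of it came from transcripts not annotated as protein-coding, so the order of the families does not describe coding RNA.

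**Figure D1:**
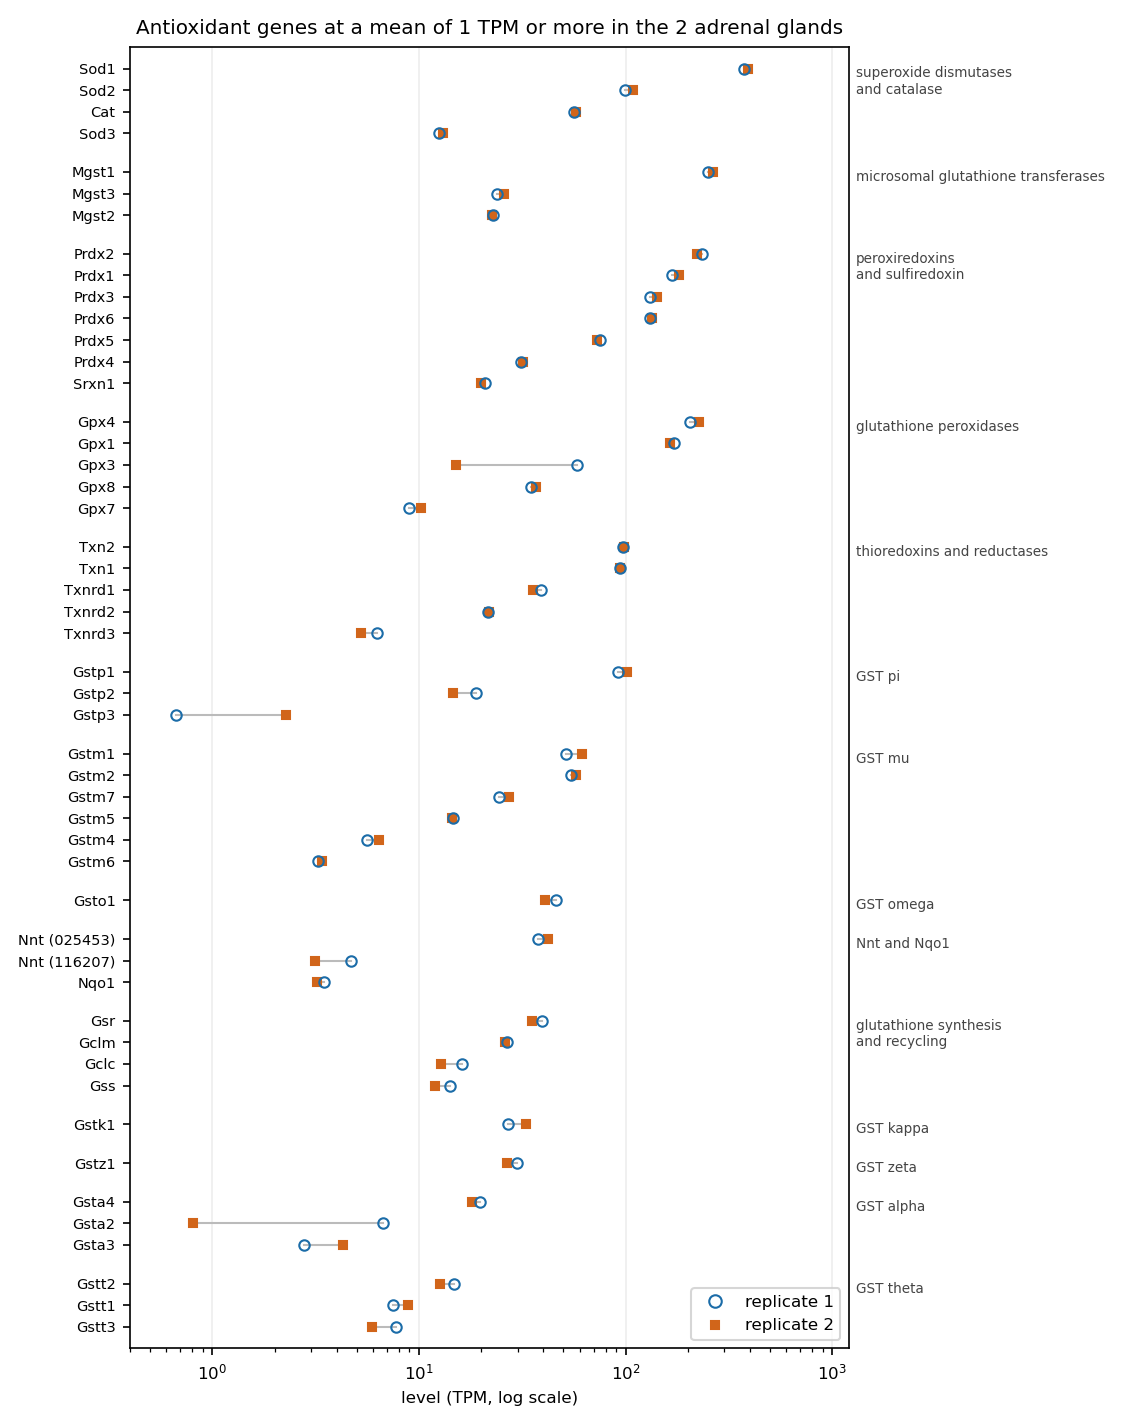
Level of each member with a mean of 1 TPM or more in replicate 1 (open circles) and replicate 2 (filled squares), on a log axis in TPM, by function; the last 6 digits of the identifier tell the 2 Nnt records apart. Sod1 lies highest at 376 and 393 TPM, most pairs of points touch, and Gpx3 (58.2 and 15.1 TPM) and Gsta2 (6.68 and 0.81 TPM) are the widest pairs with the higher point in replicate 1.

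Superoxide is handled by Sod1 in the cytosol, Sod2 in mitochondria and the secreted Sod3. Sod1 (ENSMUSG00000022982.10, mm10 chr16:90220754-90226329, plus strand) measured 376 TPM in replicate 1 and 393 TPM in replicate 2 (384 ± 11.6). It was the highest member and ranked 89 among nuclear protein-coding genes. Sod2 measured 99.3 and 108 TPM (104 ± 6.43), and Sod3 measured 12.5 and 13.1 TPM (12.8 ± 0.37). The log2 ratio of Sod1 over Sod2 was 1.89 ± 0.05, and that of Sod2 over Sod3 was 3.02 ± 0.05, or 3.72 in the second quantification, a deposited estimate made separately from the same reads. Catalase, the peroxisomal enzyme, measured 56.1 and 57.3 TPM (56.7 ± 0.83), below Gpx1 by 1.57 ± 0.07 on the log2 scale. Counting all RNA of each gene, the order Sod1, Sod2, Cat, Sod3 was the same in both animals, and no neighbours in it overlapped. Protein-coding transcripts took only 14.2% and 12.3% of the Sod2 level, against 100% for catalase and Sod3. The place of Sod2 in this order and its ratios therefore do not describe coding RNA.

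The peroxiredoxins are thiol peroxidases that are among the most abundant antioxidant proteins of most cells. Prdx2, a cytosolic form that is rich in red cells, measured 234 and 221 TPM (227 ± 9.03). Prdx1, the other main cytosolic form, measured 168 and 181 TPM (175 ± 9.14). Prdx3, the mitochondrial form, measured 131 and 142 TPM (137 ± 7.77). Prdx6, which uses glutathione in place of thioredoxin, measured 132 and 135 TPM (133 ± 2.16), so Prdx3 and Prdx6 did not differ beyond their spread here. In the second quantification, whose TPM run higher for most genes, Prdx6 lay above Prdx3 in both animals (285.5 and 290.8 TPM against 210.5 and 225.8 TPM). Prdx5 followed with 74.9 and 72.5 TPM (73.7 ± 1.65). Prdx4, the form of the endoplasmic reticulum, was lowest with 31.28 and 32.03 TPM (31.7 ± 0.53). These levels count all RNA of each gene. Protein-coding transcripts took 15.7% and 14.5% of the Prdx6 level, and 100% of that of Prdx3. For Prdx2 they took 57.2% and 60.9%, and for Prdx1 98.0% and 97.6%. The places of Prdx6 and Prdx2 in this order therefore do not describe coding RNA. Sulfiredoxin, Srxn1, repairs overoxidised peroxiredoxins and measured 20.78 and 19.95 TPM (20.4 ± 0.59), below Prdx3 by 2.74 ± 0.12 on the log2 scale. Between the animals Prdx2 differed by a log2 ratio of 0.02 (interval -0.03 to 0.07) and catalase by 0.06 (-0.01 to 0.12). Erythroid markers were higher in replicate 1 in 7 of 7 cases, at a median log2 ratio of -0.47; their part in these values was not tested.

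The glutathione peroxidases come in a selenium form and a sulfur form. In the selenium form the catalytic residue is selenocysteine, written in the messenger RNA as TGA, which is elsewhere a stop codon; in the sulfur form it is cysteine, written TGC or TGT. The sequences below are GENCODE M21 coding sequence around that codon, which is in capitals, with 24 bases on either side, and show which members need selenium.
Gpx1: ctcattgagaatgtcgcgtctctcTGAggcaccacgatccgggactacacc
Gpx2: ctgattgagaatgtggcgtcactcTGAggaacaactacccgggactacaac
Gpx3: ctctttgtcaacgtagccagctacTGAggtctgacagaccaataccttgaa
Gpx4: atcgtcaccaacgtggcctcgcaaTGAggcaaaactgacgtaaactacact
Gpx5: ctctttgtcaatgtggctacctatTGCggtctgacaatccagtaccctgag
Gpx6: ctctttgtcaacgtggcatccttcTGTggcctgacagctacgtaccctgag
Gpx7: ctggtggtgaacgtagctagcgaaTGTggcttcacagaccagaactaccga
Gpx8: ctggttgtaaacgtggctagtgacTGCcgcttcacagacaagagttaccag
The TGA of Gpx1 lies at mm10 chr9:108339451-108339453 on the plus strand (codon 47 of 201), that of Gpx3 at chr11:54907256-54907258 (codon 73 of 226) and that of Gpx4 at chr10:80054737-80054739 (codon 73 of 197, in transcript Gpx4-202). The TGC of Gpx8 lies at chr13:113045661-113045663 on the minus strand (codon 79 of 209).

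Of the family, 2 selenium forms lay highest. Gpx4 (chr10:80047166-80056439), which reduces lipid peroxides within membranes, measured 206 and 227 TPM (216 ± 15.0). Gpx1, the general cytosolic form, measured 172 and 164 TPM (168 ± 5.38). Gpx1 over Gpx4 had a log2 ratio of -0.36 ± 0.15. In the second quantification it was 0.06 in replicate 1 and -0.21 in replicate 2, so the order of these 2 genes rested on the quantification. Protein-coding transcripts took 67.7% and 65.7% of the Gpx4 level, against 99.3% and 99.6% for Gpx1. The ratio of -0.36 therefore does not describe coding RNA. Gpx8, a cysteine form of the endoplasmic reticulum, measured 35.0 and 36.8 TPM (35.9 ± 1.29), and Gpx7, its closest relative in that compartment, measured 8.92 and 10.3 TPM (9.60 ± 0.95). Gpx2, the form of the gut epithelium, and the cysteine forms Gpx5 and Gpx6 were under 1 TPM in both animals.

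Gpx3 stood apart. It encodes the secreted glutathione peroxidase of blood plasma, for which kidney is known as a main source. Gpx3 (ENSMUSG00000018339.11, chr11:54902453-54910377, plus strand) measured 58.2 TPM in replicate 1 and 15.1 TPM in replicate 2, from 2680 and 719 expected counts. Replicate 2 was lower by 3.74-fold, a log2 ratio of -1.90 (interval -2.02 to -1.78). Gpx3 thus took 12.1% of the family's summed level in replicate 1 and 3.33% in replicate 2, while Gpx4 took 42.83% and 50.03%. The second quantification gave a log2 ratio of -1.87. Over the same animals 10 of 10 kidney markers were higher in replicate 1, at a median log2 ratio of -3.39 and none at 0 in either. The 5 pancreas markers were higher in replicate 1 as well, at a median log2 ratio of -13.03, and so were the 7 erythroid markers, at -0.47. Liver and skeletal muscle markers were higher in replicate 2, at medians of 2.17 and 2.66. The part of these tissues in the Gpx3 difference was not tested.

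**Figure D2:**
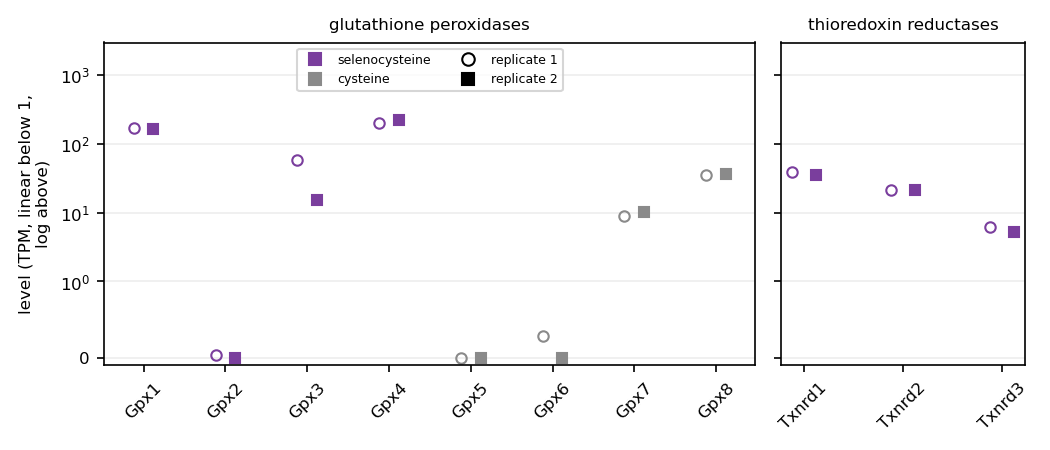
Level in TPM (linear below 1, log above) of the 8 glutathione peroxidases and 3 thioredoxin reductases in replicate 1 (open circles) and replicate 2 (filled squares), with selenocysteine forms in purple and cysteine forms in grey. Gpx4 and Gpx1 lie highest in both animals, and Gpx3 is the gene whose points lie far apart (58.2 and 15.1 TPM).

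Thioredoxin carries electrons from its reductase to the peroxiredoxins, with separate cytosolic (Txn1, Txnrd1) and mitochondrial (Txn2, Txnrd2) pairs. Txn1 measured 93.99 and 93.87 TPM (93.9 ± 0.08) and Txn2 measured 96.7 and 98.5 TPM (97.6 ± 1.29), a log2 ratio of Txn1 over Txn2 of -0.06 ± 0.02. The cytosolic reductase Txnrd1 measured 38.9 and 35.5 TPM (37.2 ± 2.43). The mitochondrial reductase Txnrd2 measured 21.5 and 21.7 TPM (21.6 ± 0.17). Txnrd3, known mainly from testis, measured 6.28 and 5.22 TPM (5.75 ± 0.75). All 3 reductases end in a TGA for selenocysteine, followed by 1 glycine codon and the stop codon, so that the selenocysteine is the residue before the last; the last bases of coding sequence with the stop codon are shown with this TGA in capitals.
Txnrd1: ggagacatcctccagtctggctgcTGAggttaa
Txnrd2: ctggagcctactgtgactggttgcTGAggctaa
Txnrd3: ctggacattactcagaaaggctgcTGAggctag
The 7 selenocysteine members together measured 502 and 468 TPM (485 ± 23.9). This sum takes the whole level of each gene, also transcripts without an annotated selenocysteine. In Gpx1 the TGA is annotated in 1 transcript, Gpx1-201. That transcript took 42.1% and 45.9% of the gene's level, and 56.6% and 67.0% in the second quantification.

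Glutathione itself is made by glutamate-cysteine ligase, with the catalytic subunit Gclc and the modifier subunit Gclm, and by glutathione synthetase, Gss; glutathione reductase, Gsr, returns the oxidised form. Gsr measured 39.5 and 35.4 TPM (37.5 ± 2.89). Gclm measured 26.7 and 26.2 TPM (26.4 ± 0.34). Gclc measured 16.1 and 12.8 TPM (14.4 ± 2.35), and Gss measured 14.14 and 12.01 TPM (13.1 ± 1.51). Counting all RNA of each gene, Gclc thus lay below Gclm, the log2 ratio being -0.88 ± 0.22 here and -1.74 in the second quantification. Protein-coding transcripts took 62.7% and 57.6% of the Gclm level, against 91.1% and 93.9% for Gclc. In the second quantification they took only 35.7% and 34.2% of the Gclm level. Both values of the ratio of Gclc over Gclm therefore do not describe coding RNA. All 4 genes were lower in replicate 2, with log2 ratios from -0.25 to -0.14, and each passed the exact binomial test on the counts of the 2 libraries (adjusted p 3.78e-05 for Gclc, 0.0053 for Gclm, 0.0054 for Gsr and 0.035 for Gss, Benjamini-Hochberg over all genes tested). This test called 33.2% of all genes tested in either direction and 14.4% as higher in replicate 1. Kidney markers (108 and 11.1 TPM summed), pancreas markers (3293 and 0.51 TPM) and erythroid markers (5272 and 3822 TPM) were lower in replicate 2 too. Summed markers of adrenal cortex, medulla, liver, skeletal muscle, macrophages and adipose tissue were higher there. The part of these tissues was not tested. The direction held for all 4 genes under 5 estimates of the ratio: TMM, DESeq2 size factors, spike-in totals, deposited TPM and the second quantification. The first 3 use the same counts and differ by a shift common to all genes (medians -0.20, -0.19 and -0.28 for these 4). They are therefore not separate checks of the direction, and all 5 come from the same 2 libraries.

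Nicotinamide nucleotide transhydrogenase, Nnt, makes NADPH in mitochondria. C57BL/6J mice, the source of the reference genome, are known to carry a deletion of several Nnt exons, while other strains carry the full gene. Exons absent from the reference cannot be counted, so the Nnt levels given here leave them out. The annotation holds 2 overlapping records on the minus strand of chromosome 13, ENSMUSG00000025453.18 (chr13:119335448-119408997) and ENSMUSG00000116207.1 (chr13:119335528-119408952). The first measured 37.7 and 42.2 TPM (39.9 ± 3.22) and the second 4.68 and 3.13 TPM (3.91 ± 1.10). Their sum was 42.3 and 45.4 TPM (43.8 ± 2.13), with a log2 ratio between the animals of 0.17 (interval 0.11 to 0.23). Nnt-206, the only transcript of the second record, is 3339 bases long and lies whole within Nnt-202 of the first, which adds 45 bases before it and 80 after it. Transcript Nnt-201 of the first record skips 2 exons of Nnt-202, of 146 bases (chr13:119374629-119374774) and 196 bases (chr13:119372396-119372591). Both are present in the reference, so they are not the exons lost by that deletion. With the 2 exons skipped, the junction after exon 7 reads differently. It is shown by the last 30 bases of exon 7 in lower case and the first 30 bases of the next exon in capitals.
Nnt-201: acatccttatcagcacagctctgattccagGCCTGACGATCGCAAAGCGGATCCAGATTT
Nnt-202 and Nnt-206: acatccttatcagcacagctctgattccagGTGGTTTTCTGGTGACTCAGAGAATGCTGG

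The split between these records depended on the quantification. The first record took 88.4% and 92.9% of Nnt counts in the gene tables but 41.6% and 43.5% in the second quantification. The summed counts were closer, with 4017 and 4525 in the first and 4403 and 4955 in the second. ENSMUSG00000116207.1 alone gave a log2 ratio of -0.53 in the gene tables and 0.15 in the second quantification, so its direction changed with the quantification.

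**Figure D3:**
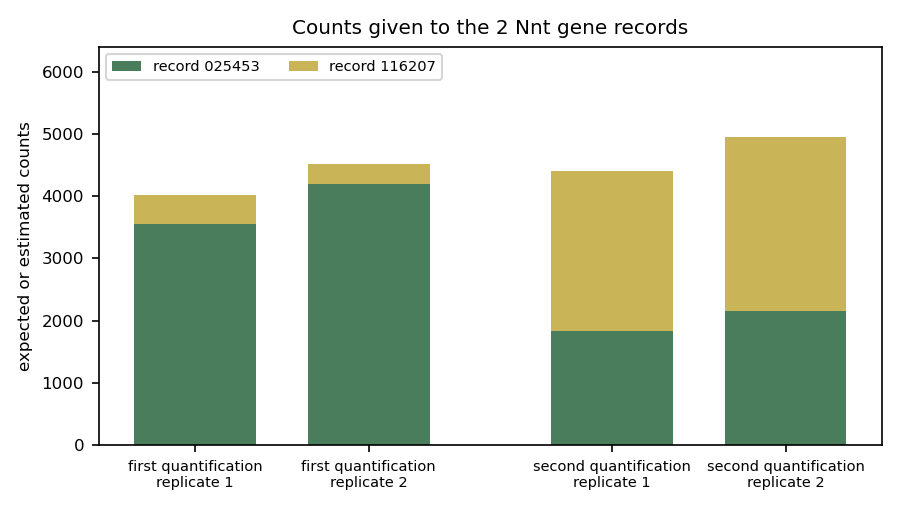
Counts assigned to the 2 Nnt records (stacked bars, by the last 6 digits of the identifier) in each animal and quantification; the axis is in expected or estimated counts and starts at 0. The bars have similar heights, 4017 to 4955 counts, while the share of the record ending in 025453 falls from 88.4% and 92.9% in the first quantification to 41.6% and 43.5% in the second.

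Among the glutathione transferases a single microsomal gene was foremost. Mgst1 (chr6:138140316-138156755, plus strand), a membrane enzyme of the endoplasmic reticulum and outer mitochondrial membrane, measured 250 and 265 TPM (257 ± 10.7). It made up 34.4% and 35.1% of the summed level of all 25 transferase genes. Mgst3 measured 23.98 and 25.74 TPM (24.9 ± 1.24) and Mgst2 measured 22.7 TPM in both animals (22.7 ± 0.04). The log2 ratio of Mgst1 over Mgst3 was 3.37 ± 0.01.

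The cytosolic transferases fall into classes whose genes lie side by side. The pi class, 3 genes within 24.2 kb of chromosome 19, was led by Gstp1 with 92.0 and 102 TPM (96.8 ± 6.75), followed by Gstp2 with 18.8 and 14.7 TPM (16.7 ± 2.91). The mu class, 7 genes within 149 kb of chromosome 3, summed to 154 and 170 TPM (162 ± 11.6). Gstm1 measured 51.5 and 61.6 TPM (56.5 ± 7.13) and Gstm2 measured 54.6 and 57.3 TPM (55.9 ± 1.88), so these 2 did not differ beyond their spread here. In the second quantification Gstm2 lay above Gstm1 in both animals (107.3 and 115.4 TPM against 93.3 and 107.3 TPM). Gstm7 followed with 24.4 and 27.2 TPM (25.8 ± 1.94) and Gstm5 with 14.7 and 14.5 TPM (14.6 ± 0.09). Gstm4 and Gstm6 lay between 1 and 10 TPM, and Gstm3 was under 1 TPM in both animals.

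The remaining classes were lower. Gsto1, of the omega class, measured 46.0 and 40.6 TPM (43.3 ± 3.80). Gstk1, the mitochondrial and peroxisomal kappa form, measured 26.85 and 33.02 TPM (29.9 ± 4.36), and Gstz1, the zeta form of tyrosine breakdown, measured 29.8 and 26.7 TPM (28.3 ± 2.25). Gsta4, which conjugates the lipid peroxidation product 4-hydroxynonenal, led the alpha class with 19.9 and 18.1 TPM (19.0 ± 1.27). Counting all RNA, Gstt2 led the theta class with 14.8 and 12.6 TPM (13.7 ± 1.57), while Gstt1 and Gstt3 lay between 1 and 10 TPM and Gstt4 under 1 TPM. Protein-coding transcripts took 47.7% and 50.04% of the Gstt2 level and 100% of that of Gstt1. Nqo1, a quinone reductase and a common reporter of the transcription factor NRF2, measured 3.48 and 3.20 TPM (3.34 ± 0.20), below Txnrd1 by 3.47 ± 0.01 on the log2 scale.

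Gsta2 is an alpha-class transferase known from liver, gut and kidney. Gsta2 (chr9:78331018-78355788, minus strand) measured 6.68 TPM in replicate 1 and 0.81 TPM in replicate 2, from 156 and 18.9 expected counts. The log2 ratio was -3.01 (interval -3.81 to -2.35), or 8.08-fold, and -2.99 in the second quantification. Its mean count of 87.4 lay under the minimum of 100 set for calls, so it is not among the called genes. Kidney markers (108 and 11.1 TPM summed), pancreas markers (3293 and 0.51 TPM) and erythroid markers (5272 and 3822 TPM) moved the same way. Liver markers (104 and 455 TPM summed) and skeletal muscle markers (361 and 2253 TPM) moved the opposite way. The part of these tissues was not tested. Gsta3 measured 2.79 and 4.31 TPM, and Gstp3 measured 0.67 and 2.27 TPM from only 12 and 42 counts.

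**Figure D4:**
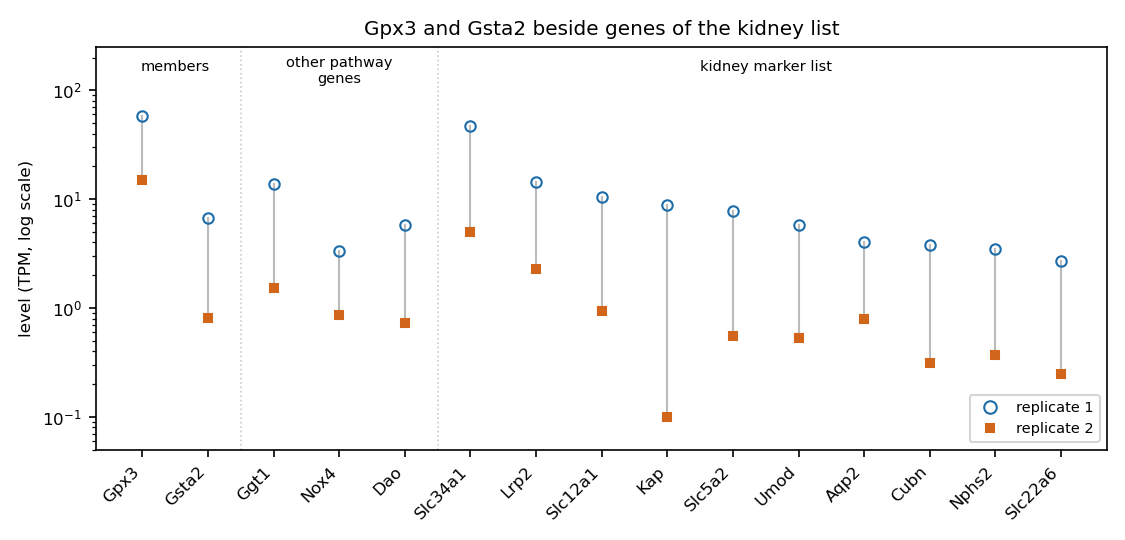
Level in TPM (log axis) of Gpx3 and Gsta2, of the pathway genes Ggt1, Nox4 and Dao, and of the 10 kidney markers in replicate 1 (open circles) and replicate 2 (filled squares). All 15 genes have the higher point in replicate 1. Gpx3, Gsta2, Ggt1, Nox4 and Dao were picked for a large difference in this direction, so their direction is not a separate result. Pancreas and erythroid markers, which are not drawn, were also higher in replicate 1. The part of any of these tissues was not tested.

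At the other end, 9 members were not detected at 1 TPM in both animals. Of these, Gpx2, Gpx5, Gpx6, Gsta1, Gstm3 and Gstt4 were under 1 TPM in both. Gpx5 had no count in either animal in the first quantification, but 4 and 1 counts in the second. In the first, the limit that a count of 0 sets is a share of 9.42e-06% of the counts in replicate 1 and 9.11e-06% in replicate 2 (3 counts, covering counting error only). The others were Gsta2, Gstp3 and Gsto2, of which Gsto2 measured 0.89 and 1.00 TPM.

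The 2 animals were alike for most members. Of the 47 members with a mean count of at least 100, 1 differed 2-fold or more, Gpx3, which was higher in replicate 1. Across all 13734 genes with that count, 3.21% differed 2-fold and 1.71% did so with the higher value in replicate 1, so 1 of 47 lies near the background. Within a log2 ratio of 0.25 lay 40 of the 47, and within 0.5 lay 44. The median absolute log2 ratio was 0.12 for the members and 0.11 for all genes tested. The exact binomial test, which asks only whether 2 libraries differ by more than sampling of reads, called 18 of 47 members (38.3%) against a background of 33.2% of all genes. Of these, 10 were higher in replicate 2 (Sod1, Mgst1, Gpx4, Prdx1, Prdx3, Gstm1, Gstm7, Gstk1, Gsta3 and the first Nnt record; background 18.8%). The other 8 were higher in replicate 1 (Gpx3, Gclc, Gclm, Gss, Gsr, Gstz1, Gstt3 and the second Nnt record; background 14.4%); for that Nnt record the direction holds in the gene tables only. Under TMM 30 members had the higher value in replicate 2 and 17 in replicate 1, under spike-in totals 20 and 27, and under deposited TPM 25 and 22. The direction was the same under all 5 estimates for 31 members, with 19 higher in replicate 2 and 12 in replicate 1, and changed with the scaling or quantification for 16. Sod2, catalase, Txn1, Txn2, Gpx1 and Prdx2 were among those without a stable direction. With 2 libraries no p-value speaks about animals or conditions.

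**Figure D5:**
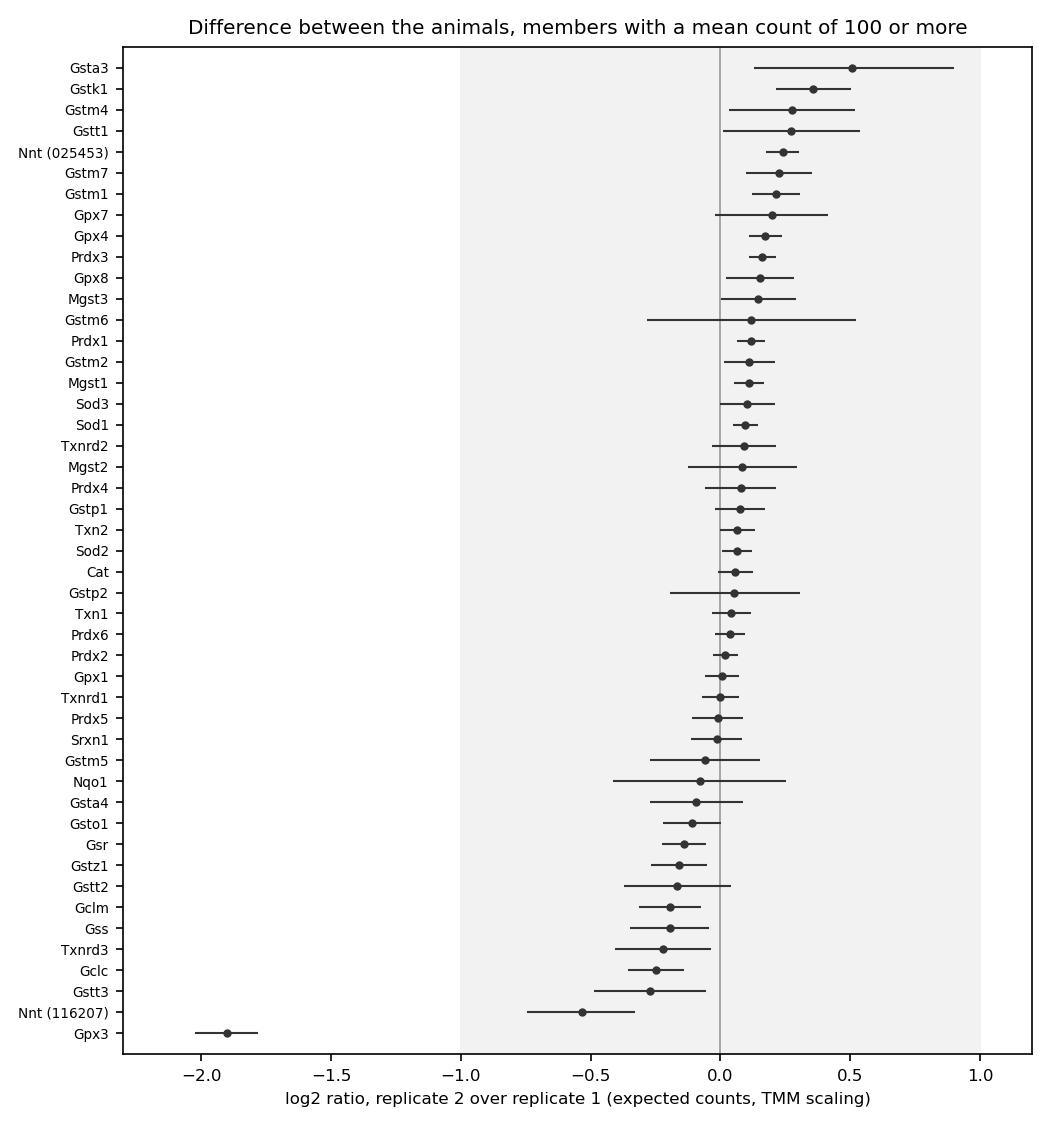
Log2 ratio of replicate 2 over replicate 1 (points) with 95% exact counting intervals (bars) for the 47 members with a mean count of 100 or more; the grey band marks less than 2-fold. Gpx3 at -1.90 is the only point outside the band, and Gclc, Gclm, Gss and Gsr lie below 0.

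Transcript estimates bear on how much of these levels can be read as protein-coding RNA. Among 43 member records with at least 5 TPM in both animals, the leading transcript was the same in both animals for 40, and in both quantifications as well for 34. In 31 records, protein-coding transcripts took 90% or more of the gene's level in both animals. Sod2 and Prdx6 were the 2 exceptions under 50% in both animals and both quantifications. For Sod2 the protein-coding share was 14.2% and 12.3%, with the processed transcript Sod2-207 leading at 56.4% and 55.9%. For Prdx6 it was 15.7% and 14.5%, with Prdx6-208, annotated as a target of nonsense-mediated decay, leading at 57.1% and 54.8%. Prdx2 was led by the retained-intron form Prdx2-205 with 36.7% and 34.7%. Gstt2 was led in replicate 1 by the retained-intron form Gstt2-204, and its coding share was 47.7% and 50.04%. Gclm had a coding share of 62.7% and 57.6%, and of 35.7% and 34.2% in the second quantification. The levels of these 5 genes include RNA that the annotation does not count as coding. The same holds for Gsto1 (coding share 63.4% and 64.1%), Gsr (66.4% and 66.2%), Gpx4 (67.7% and 65.7%) and Gstp1 (74.2% and 62.6%). Gstp2, Gss and Gstm1 also did not reach 90% in both animals. In the second quantification Gpx4 had 99.6% and 99.7% and Gsto1 90.4% in both, while Gsr and Gstp1 stayed under 90%.

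Closely related genes share sequence, and the counting had to divide such reads. In the leading coding transcript of each member, 16 members had at least 1 stretch of 100 bases found letter for letter in another gene's transcript, and for 6 this was 50% or more of all stretches: both Nnt records, Gsta1, Gstp2, Gpx4 and Gstp1. Gpx4 shared 55.5% of its stretches with the pseudogene Gpx4-ps2. Gstp1 and Gstp2 have coding sequences of 630 bases that differ at 12 positions (98.1% identical). Of these, 6 fall within the first 90 coding bases, which are shown with the differing bases in capitals.
Gstp1: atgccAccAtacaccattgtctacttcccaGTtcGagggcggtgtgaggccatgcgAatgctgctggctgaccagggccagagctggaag
Gstp2: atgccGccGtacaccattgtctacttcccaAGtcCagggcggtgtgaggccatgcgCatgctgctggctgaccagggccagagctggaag
The value of Gstp2 is uncertain: its log2 ratio between the animals was 0.05 (interval -0.19 to 0.31) in the gene tables and 1.26 in the second quantification, which gave it 93.0 and 219 counts.

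NRF2 regulates many of these genes through the antioxidant response element. The core TGACNNNGC was searched on both strands in the RefSeq promoters of GRCm38.p6, which run from 250 bases before to 50 after each gene start; 48 of the 55 symbols were in that table, and Gclc, Gsr, Gsta4, Gstt2, Nnt, Prdx6 and Sod3 were not. A match stood in 9 of 62 member promoters (14.5%) and in 12.4% of all 32851 promoters. The 9 genes were Gclm, Gsta3, Gstm5, Gstm7, Mgst1, Prdx1, Sod1, Srxn1 and Txnrd1. For genes with a mean above 10 TPM, the 4 matches that lie clear of the gene's own annotated exons are shown with the match in capitals and up to 30 bases on either side.
Prdx1, chr4:116685436-116685504, plus strand: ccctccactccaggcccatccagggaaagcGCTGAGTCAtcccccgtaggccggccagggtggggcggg
Txnrd1, chr10:82859084-82859152, plus strand: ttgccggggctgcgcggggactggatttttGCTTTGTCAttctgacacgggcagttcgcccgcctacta
Gclm, chr3:122245393-122245461, plus strand: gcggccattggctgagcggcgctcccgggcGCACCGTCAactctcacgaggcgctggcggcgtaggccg
Sod1, chr16:90220676-90220744, plus strand: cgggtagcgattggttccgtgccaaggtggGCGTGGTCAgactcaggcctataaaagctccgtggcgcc
In all 4 the motif reads on the opposite strand. A match is a description of letters; binding was not measured here.

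The genes around these systems were expressed as well. Of 16 genes of NADPH supply all were detected, summing to 938 and 977 TPM, led by Tkt of the pentose phosphate pathway (142 and 149 TPM), Idh1 (137 and 148) and Me1 (121 and 130). Nnt over mitochondrial Idh2 had a log2 ratio of -1.32 ± 0.05, with both Nnt records summed. The Nnt level does not separate the alleles of the parent strains, so this ratio does not describe RNA of the full gene alone. Of 19 regulators and targets of NRF2 outside the members, 18 were detected; the ferritin genes Fth1 (562 and 602 TPM) and Ftl1 (269 and 260) and the autophagy receptor Sqstm1 (179 and 190) were highest. Of 17 genes regulating thioredoxin or resembling it all were detected, led by Txnip, the thioredoxin inhibitor (350 and 305 TPM), P4hb (190 and 178) and Pdia3 (143 in both). Of 18 genes for selenoprotein synthesis and other selenoproteins all were detected, led by Selenop, the selenium carrier of plasma (95.7 and 114 TPM), Selenof (104 and 106) and Selenow (73.0 and 77.3). The 7 glutaredoxin and glyoxalase genes were all detected and led by Esd (67.4 and 63.9 TPM), Glrx5 (47.7 and 52.2) and Glo1 (43.3 and 44.3). For the lipid peroxide and ferroptosis list 8 of 11 were detected, led by Aifm2 (81.9 and 78.8 TPM), Acsl4 (51.5 and 52.7) and Lpcat3 (35.6 and 35.1). None of the genes in these 6 lists differed 2-fold at a mean count of 100.

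Both remaining lists held called genes. For glutathione breakdown and transport 15 of 17 were detected, led by Slc25a39, a mitochondrial glutathione carrier (90.7 and 86.3 TPM), Slc3a2 (62.1 and 54.8) and Oplah (26.2 and 26.4). Ggt1, which splits glutathione at the cell surface and is abundant in kidney tubules, measured 13.9 and 1.53 TPM, a log2 ratio of -3.38. For superoxide and peroxide sources 9 of 16 were detected, among them Xdh (32.9 and 26.9 TPM) and Cyba (27.4 and 21.6 TPM). Nox4 measured 3.33 and 0.86 TPM (log2 ratio -1.87) and Dao measured 5.75 and 0.73 TPM (log2 ratio -2.60). These are 1 of 14 and 2 of 11 genes tested in the 2 lists, where 1.71% of all genes tested differed 2-fold with the higher value in replicate 1. All 3 were higher in replicate 1, the library with the higher kidney, pancreas and erythroid markers. The part of those tissues was not tested.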

How the data were processed

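Total RNA-seq of the adrenal glands of 2 female mice, per the labels from 300 ng of RNA with ERCC spike-ins, gave 1 group of 2 replicates. The authors deposited gene and transcript tables of expected counts and TPM, with each transcript's percent of its gene, and a second table of estimated counts and TPM per transcript, summed here to genes and called the second quantification. The authors' notes name mm10 and GENCODE M21; the sources used here do not name the aligner or quantifier. Per library, expected counts summed to 31838341 and 32931868; 0.90% and 0.92% of them were spike-ins and were left out of library sizes.

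The members and gene lists were chosen with earlier results of these data known. Named are members at 10 TPM or more or differing 2-fold, the 3 highest genes of each list and its 2-fold genes; 1 list gene is not reported here. Ratios between the replicates used TMM (edgeR 4.0.16; factors 1.02 and 0.98) with a prior of 0.5 counts; a mean count of 100 or more and 2-fold was a call of size only. The conditional binomial test (exact, two-sided, on rounded expected counts) was adjusted by Benjamini-Hochberg at 0.05 over 13734 genes. Pairs used a pseudocount of 0.01 TPM. Intervals are 95% Clopper-Pearson and cover counting error only. Alternatives were DESeq2 1.42.0 size factors, spike-in totals, other filters, priors and thresholds, posterior mean TPM and the second quantification. Steps were tested on simulated data. Whether the replicates are separate animals rests on the labels. Reads of CAST alleles were quantified against the C57BL/6J reference. Python 3.11.15 and R 4.3.3 were used.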

Additional observations from a re-analysis of the deposited data

How the results depend on the processing

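The summed level of the members, 2956 TPM, was 2913 with posterior mean TPM, 2993 when TPM was rescaled over annotated genes, 5972 in the second quantification, and 2940 to 2972 without either replicate. The second quantification gave TPM 1.82 times as high over all genes and 1.92 times over the members; after division by the former, 43 of 47 members lay within 1.5 times of the first, and Gclm (1.93), Prdx2 (1.55) and the Nnt records (0.44 and 5.80) did not. That division, and the joining of the Nnt records, were chosen after seeing the data. The count of members differing 2-fold, 1, became 2 in the second quantification (Gpx3 and Gstp2), 3 at a mean count of 20 (Gpx3, Gsta2 and Gstp3) and 7 with no filter; it stayed at 1 under the other 6 alternatives. The cause of the second-quantification differences was not tested; the filters admit genes with few counts. Detected members ranged from 43 to 50, and members past the binomial test from 17 to 23. None of the 22 pairs changed the sign of its mean, whereas the sign of the ratio between the animals changed for 16 of 47 members under another scaling or quantification. Without a replicate no ratio between the animals exists. No paired analysis was possible because the study has 1 group. Depth limits members of few counts, such as Gstp3 with 12 and 42.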
